A study of Homo sapiens with 14 samples.

Results

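Collagens and the proteins that assemble, anchor and cut them were followed as a set of 57 genes, of 61541 in the count table. The genes were listed by name and matched by symbol to their Ensembl identifiers, and all 57 were found. They comprise 20 collagen chains, 9 matrix glycoproteins, 9 laminin and basement membrane genes, 10 matrix proteases, 4 protease inhibitors, 3 genes of plasminogen activation and 2 crosslinking enzymes. Their RNA was compared between 3 libraries labelled shHDAC5, with genotype HDAC5 knockdown, and 3 labelled shControl, with genotype WT, all total RNA of the pancreatic cancer cell line labelled BxPC-3 at day 3. Here sh stands for a short hairpin RNA, and HDAC5 is a class IIa histone deacetylase. The series also holds GATA1 chromatin immunoprecipitation from PANC-1, another pancreatic cancer line, with 2 immunoprecipitations and 2 inputs for shHDAC5 and the same for shControl at day 3, given as 1 peak list per condition.

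The labels could not be taken at face value. HDAC5 itself stood at 162, 161 and 169 CPM (read counts scaled to a common library size) in the libraries labelled as its knockdown, against 95.4, 91.7 and 97.7 CPM in the control ones. That is higher in 3 of 3 libraries (log2 fold change 0.79, standard error 0.0358, adjusted p = 3.95e-40 by edgeR's quasi-likelihood test), so every direction here is between libraries as labelled. Of 9 epithelial markers, KRT19, EPCAM and CDH1 stayed between 0 and 2.40 CPM in all 6 libraries while KRT8 stood between 706 and 1029 CPM. The libraries held 15179758 to 17854340 counts, and log2 CPM correlated across genes at 0.992 or more within a group and 0.816 or less between groups. Whether a group's 3 libraries are separate cultures is not in the labels, and p-values therefore weigh differences against a library-to-library spread that may be technical. In such bulk samples, fewer cells making a transcript and less of it per cell cannot be told apart.

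The extracellular matrix is built from trimeric collagens and glycoproteins. Fibrillar collagens form cables, collagen IV and laminins form the sheet-like basement membrane under epithelia, and smaller collagens tie the layers together. Metalloproteinases and plasmin cut these proteins, TIMPs and serpins restrain the cutting, and lysyl oxidases crosslink the fibres. Pancreatic cancer is known for a dense, collagen-rich stroma, most of it made by fibroblasts rather than by the tumour cells.

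Sets of member genes share a stretch of genome, and the promoters of some of them are shown to place the genes beside each other. COL4A1 and COL4A2 are transcribed away from each other on chromosome 13 with start sites 127 bases apart, and COL4A5 and COL4A6 do the same on chromosome X with 380 bases between their starts. COL6A2 is the neighbour of COL6A1 on chromosome 21, and its level relative to COL6A1 differed between the groups. MMP10 and MMP7 lie in the metalloproteinase cluster of chromosome 11, where MMP10 rose and MMP7 stayed near 0. Each sequence runs 5′ to 3′ from 250 bases before to 50 bases after the gene's start (RefSeq, GRCh38.p14). Capitals mark CCAAT, on either strand, in the collagen IV promoters and TATAAA, on either strand, in the other 3.
COL4A2 (chr13:110307034-110307333, plus strand): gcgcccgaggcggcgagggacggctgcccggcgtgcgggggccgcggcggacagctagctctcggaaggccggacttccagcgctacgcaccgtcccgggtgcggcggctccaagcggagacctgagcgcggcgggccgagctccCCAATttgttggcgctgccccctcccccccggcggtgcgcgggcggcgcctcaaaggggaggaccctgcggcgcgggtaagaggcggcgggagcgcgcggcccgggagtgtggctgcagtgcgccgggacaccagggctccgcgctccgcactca
COL4A5 (chrX:108439588-108439887, plus strand): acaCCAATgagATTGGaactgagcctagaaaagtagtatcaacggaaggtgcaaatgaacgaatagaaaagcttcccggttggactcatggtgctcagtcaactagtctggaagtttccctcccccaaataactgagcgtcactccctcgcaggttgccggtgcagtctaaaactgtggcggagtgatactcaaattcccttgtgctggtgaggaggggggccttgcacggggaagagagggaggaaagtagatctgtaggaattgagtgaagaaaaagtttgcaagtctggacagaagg
COL4A6 (chrX:108439409-108439708, minus strand): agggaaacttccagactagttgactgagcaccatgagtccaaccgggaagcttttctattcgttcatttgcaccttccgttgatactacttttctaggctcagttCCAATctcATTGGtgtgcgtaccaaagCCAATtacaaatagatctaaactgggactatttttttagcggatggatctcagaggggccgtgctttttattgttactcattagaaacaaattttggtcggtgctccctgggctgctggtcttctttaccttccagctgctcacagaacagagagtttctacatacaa
COL6A2 (chr21:46097862-46098161, plus strand): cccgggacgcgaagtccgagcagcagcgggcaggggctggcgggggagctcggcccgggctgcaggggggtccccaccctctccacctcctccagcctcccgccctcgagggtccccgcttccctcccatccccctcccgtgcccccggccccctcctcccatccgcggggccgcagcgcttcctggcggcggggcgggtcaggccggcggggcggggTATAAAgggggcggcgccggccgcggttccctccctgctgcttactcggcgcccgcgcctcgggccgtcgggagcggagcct
MMP10 (chr11:102780579-102780878, minus strand): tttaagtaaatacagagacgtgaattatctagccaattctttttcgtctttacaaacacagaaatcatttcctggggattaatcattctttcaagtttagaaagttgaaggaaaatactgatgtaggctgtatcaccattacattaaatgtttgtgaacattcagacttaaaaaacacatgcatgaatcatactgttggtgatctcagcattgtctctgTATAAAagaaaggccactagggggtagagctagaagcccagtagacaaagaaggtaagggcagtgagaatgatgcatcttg
MMP7 (chr11:102530698-102530997, minus strand): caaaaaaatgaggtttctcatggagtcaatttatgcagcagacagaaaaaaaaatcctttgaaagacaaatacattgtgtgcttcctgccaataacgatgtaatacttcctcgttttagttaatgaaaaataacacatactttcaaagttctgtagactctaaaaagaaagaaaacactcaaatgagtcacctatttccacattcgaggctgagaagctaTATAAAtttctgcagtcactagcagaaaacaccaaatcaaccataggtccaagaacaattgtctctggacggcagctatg
The COL4A1 and COL4A2 windows have 226 bases in common, so the single CCAAT in the COL4A2 window serves for both. The COL4A5 and COL4A6 windows have 121 bases in common, and both CCAAT matches of COL4A5 are, read from the other strand, the leftmost pair of the 3 in the COL4A6 sequence.

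Promoter sequences were found for 40 of the 57 genes, and searched on both strands. CCAAT, the letters bound by NF-Y, was in 16 of them (40%), against 36.4% of 15843 promoters of protein-coding genes. TATAAA, the letters of a core promoter element, was in 8 (20%) against 9.63%, counted anywhere in the window. In COL7A1, COL13A1 and COL17A1 it began at -124, -236 and -206 from the start site. In COL6A2, MMP7, MMP10, POSTN and THBS2 it began between -32 and -29, and POSTN had another match at -182. The AP-1 letters TGAGTCA were in 4 (10%), LAMA3, MMP7, PLAUR and POSTN, against 3.66%. GATA with A or T before it and A or G after it was in 5 (12.5%), COL17A1, MMP10, PLAU, SPARC and VIT, against 19.7%. These are matches of letters only and say nothing of whether a factor was bound.

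Members of the set moved in either direction. Of the 57 genes, 8 were too low in both groups to be tested, and of the 49 tested, 25 rose and 19 fell under the shHDAC5 label (edgeR's quasi-likelihood test, Benjamini-Hochberg adjusted p under 0.05), with 5 not called. Among all 19181 genes tested, 44.8% rose and 39.9% fell, 84.7% in all, so most genes of this experiment were called and the set's shares of 51.0% and 38.8% lie close to that background. Counts called in single role groups and lists below are to be read beside the same shares, since each holds few genes. At a change of at least 2-fold, 16 members rose and 11 fell, where 26.4% and 20.1% of all genes did. The CPM of the groups did not overlap for 25 higher and 20 lower members, against 45% and 39.8% of all genes tested, or 84.8% in all. The members' median log2 fold change was 0.24, and that of all genes tested 0.09. A gene silent in 1 group passes the filter on low counts only through the other group, so these counts describe the set and support nothing beyond it. Summed over the 57 genes the level was 8230.2 to 8382 CPM in the libraries labelled shHDAC5 and 11382 to 11883 CPM in those labelled shControl. Abundant genes weigh most in that sum, so it does not describe a typical member. COL7A1 averaged 1006 CPM under shHDAC5 labels and 2032 CPM under shControl labels, and LAMA5 471 and 1343 CPM. AGRN, also abundant, went the other way, with 1148 and 905 CPM.

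**Figure D1:**
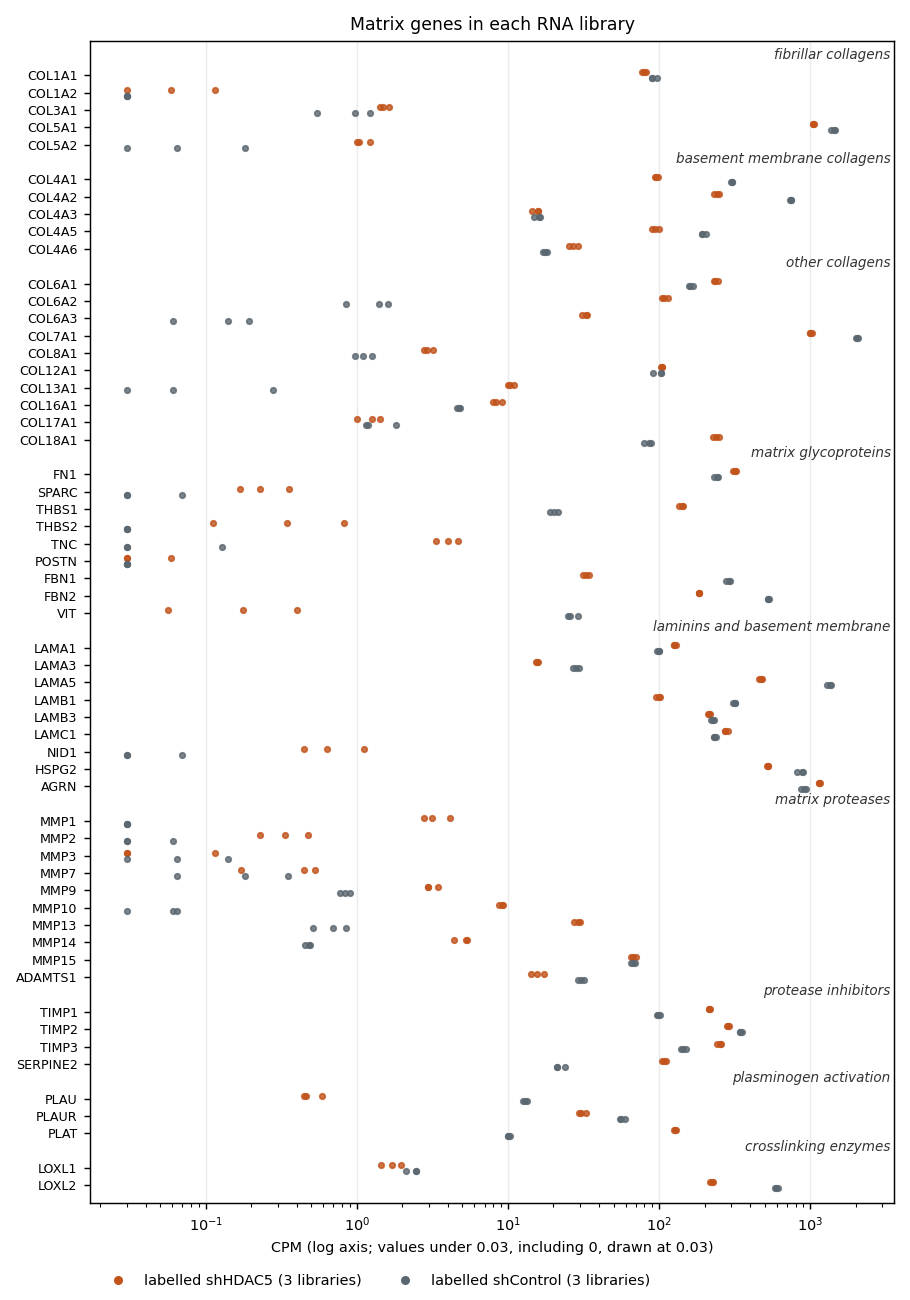
CPM (log axis) of the 57 genes in each of 6 libraries, grouped by role, with the libraries labelled shHDAC5 above those labelled shControl in each row. COL6A2, COL6A3, COL13A1, TNC, MMP1, MMP10 and MMP13 lie far to the right under the shHDAC5 label, and VIT, PLAU and FBN1 far to the left.

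The number of genes near silence differed between the labels. Under the shHDAC5 label 10 of the 57 averaged less than 1 CPM, and under the shControl label 18. The 8 genes low in both were COL1A2, SPARC, THBS2, POSTN, NID1, MMP2, MMP3 and MMP7, several of them textbook products of fibroblasts. Low only under the shControl label were 10 genes: COL3A1, COL5A2, COL6A3, COL13A1, TNC, MMP1, MMP9, MMP10, MMP13 and MMP14. Low only under the shHDAC5 label were 2, VIT and PLAU. The imbalance was also that of the whole table. Of the 18025 genes that averaged at least 1 CPM in either group, 5.63% were below it only under the shHDAC5 label and 15.01% only under the shControl label. The members' shares were 4.08% under the shHDAC5 label and 20.4% under the shControl label, of 49.

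Of the 5 fibrillar collagen genes, 2 rose, 2 fell and COL1A2 was not tested, against 44.8% and 39.9% of all genes. COL5A1, a chain of the collagen V that nucleates fibres, was the most abundant of them (ENSG00000130635, chromosome 9, 134641803 to 134844843, GRCh38). It had 1058, 1049 and 1050.5 CPM in the libraries labelled shHDAC5, against 1433, 1363 and 1464 CPM in those labelled shControl, and fell modestly (log2 fold change -0.43, standard error 0.0229, adjusted p = 9.26e-35 by edgeR's quasi-likelihood test). Its usual partner chain COL5A2 was nearly absent, with 17, 18 and 22 counts under shHDAC5 labels and 1, 0 and 3 under shControl labels, a rise of 12.7-fold by summed counts (95% exact counting interval 4.68 to 48.0; adjusted p = 2.29e-08, edgeR). Outside the 57 genes, COL5A3, another chain of collagen V, was at 169.9, 163 and 169 CPM under shHDAC5 labels and 0.901, 0.419 and 0.845 CPM under shControl labels (log2 fold change 7.82, adjusted p = 7.84e-96, edgeR). Per kilobase of gene length, COL5A3 came to 0.262 ± 0.00499 under shHDAC5 labels and 8.30e-04 ± 2.84e-04 under shControl labels (SD, n = 3 each) times COL5A1. The collagen V message was therefore almost entirely COL5A1 under the shControl label and a mixture of COL5A1 and COL5A3 under the shHDAC5 label.

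Collagen I message was almost all from COL1A1. COL1A1, its alpha-1 chain, stood at 79.6 ± 2.40 CPM under shHDAC5 labels and 92.3 ± 4.13 CPM under shControl labels (SD, n = 3 each). The fall is small (log2 fold change -0.21, adjusted p = 1.82e-06, edgeR) and was lost with upper-quartile factors (adjusted p = 0.0831) and with library totals (adjusted p = 0.476). COL1A2, the alpha-2 chain of the same trimer, had 1, 2 and 0 counts in the libraries labelled shHDAC5 and 0, 0 and 0 in those labelled shControl. COL3A1, which is made with collagen I in connective tissue, had 24, 26 and 29 counts under shHDAC5 labels and 19, 14 and 9 under shControl labels. Its rise (log2 fold change 0.73, adjusted p = 0.0328, edgeR) rests on few counts. Without shHDAC5 replicate 2 or 3 its adjusted p was 0.0625 or 0.0962, without shControl replicate 2 or 3 it was 0.0538 or 0.264, with DESeq2 0.0843 and without the filter 0.0702. Without shControl replicate 3, COL5A2's log2 fold change was 4.72.

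Collagen IV fell, but not in all its chains. COL4A1 (ENSG00000187498, chromosome 13, 110148963 to 110307157) and COL4A2, which make the ubiquitous basement membrane trimer, fell together. COL4A1 had 93.9, 94.6 and 98.4 CPM in the libraries labelled shHDAC5, against 304, 297 and 302 CPM in those labelled shControl (log2 fold change -1.65, standard error 0.0322, adjusted p = 3.38e-74 by edgeR's quasi-likelihood test). COL4A2 had 247, 232 and 241 CPM under the shHDAC5 label and 747, 732 and 743 CPM under the shControl label (log2 fold change -1.63, standard error 0.0265, adjusted p = 1.23e-81 by edgeR's quasi-likelihood test). Neither gene's groups overlapped, and the per-kilobase ratio of COL4A1 to COL4A2 was 0.524 ± 0.0216 under shHDAC5 labels and 0.534 ± 0.00110 under shControl labels (SD, n = 3 each). Those ratios overlapped between the groups (exact permutation test, two-sided p = 1). The start sites of these genes lie within the COL4A2 sequence printed above.

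The other collagen IV genes, whose chains build the specialised membranes of kidney, lung and skin, did not keep their ratios. COL4A5 fell to 94.1 ± 4.89 CPM under the shHDAC5 label, against 195 ± 7.20 CPM under the shControl label (SD, n = 3 each; log2 fold change -1.05, adjusted p = 1.63e-51, edgeR). Its head-to-head neighbour COL4A6 rose to 27.2 ± 1.96 CPM under the shHDAC5 label, against 17.6 ± 0.589 CPM under the shControl label (log2 fold change 0.63, adjusted p = 4.32e-12, edgeR). The ratio of COL4A6 to COL4A5 per kilobase was 0.369 ± 0.00741 under shHDAC5 labels and 0.115 ± 0.00182 under shControl labels (SD, n = 3 each), with no overlap. COL4A3 did not pass, at 15.3 ± 0.790 CPM under shHDAC5 labels and 15.7 ± 0.756 CPM under shControl labels (log2 fold change -0.04, adjusted p = 0.66, edgeR), and its sign turned with another scaling (0.10 with upper-quartile factors, 0.14 with library totals). COL4A4, which shares the COL4A3 promoter region on chromosome 2 and is not among the 57 genes, rose to 71.3 ± 2.53 CPM under the shHDAC5 label, against 42.7 ± 1.67 CPM under the shControl label (log2 fold change 0.74, adjusted p = 1.21e-26, edgeR). The ratio of COL4A3 to COL4A4 was 0.207 ± 0.0175 under shHDAC5 labels and 0.354 ± 0.01004 under shControl labels (SD, n = 3 each), again with no overlap. With 3 libraries a group, the smallest two-sided p an exact permutation test of a ratio can give is 0.1, and both non-overlapping ratios had that value. Of the head-to-head arrangements, then, COL4A1 with COL4A2 fell together, COL4A5 fell as COL4A6 rose, and COL4A4 rose while COL4A3 was not called.

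**Figure D2:**
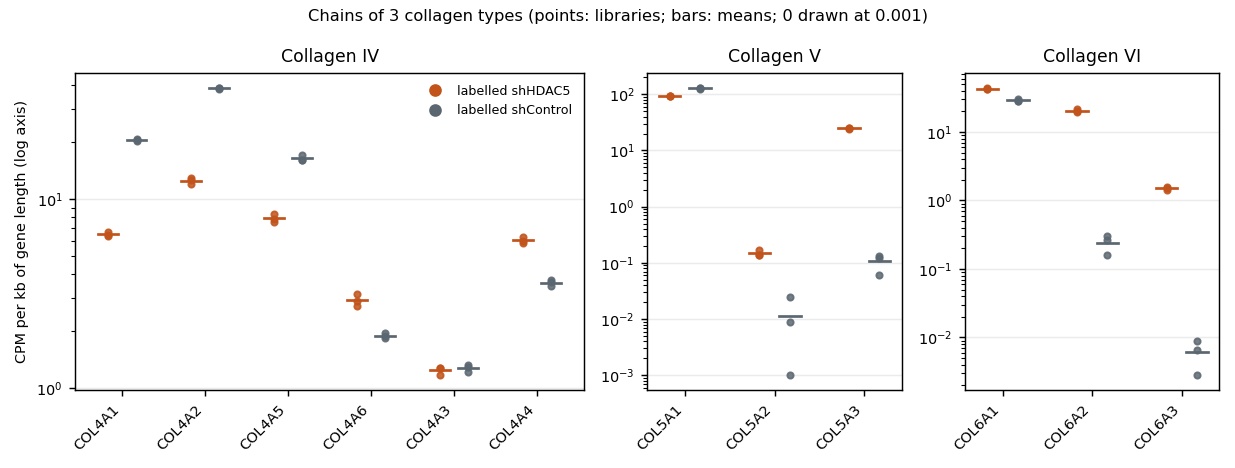
Level per kilobase of gene length (CPM per kb, log axis) of the chains of collagen IV, V and VI in each library, with points for libraries and bars for means, shHDAC5 left of shControl. COL4A1 and COL4A2 drop in parallel, while COL5A3, COL6A2 and COL6A3 are high only under the shHDAC5 label.

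Among the 10 other collagens, 7 rose, COL7A1 fell, and COL12A1 and COL17A1 were not called, where 44.8% of all genes rose and 39.9% fell. Collagen VI, which forms beaded microfilaments around cells from 3 different chains, held the largest fold change of the 10, that of COL6A3. COL6A1 was present in both groups, with 246, 231 and 233 CPM in the libraries labelled shHDAC5 and 159, 157 and 168 CPM in those labelled shControl (log2 fold change 0.55, standard error 0.0316, adjusted p = 6.18e-32 by edgeR's quasi-likelihood test). COL6A2 (ENSG00000142173, chromosome 21, 46098112 to 46132848), which lies 93063 bases further along the same chromosome, had 114, 107 and 104 CPM under the shHDAC5 label and 1.61, 1.40 and 0.845 CPM under the shControl label (log2 fold change 6.41, standard error 0.0958, adjusted p = 2.63e-85 by edgeR's quasi-likelihood test). COL6A3, on chromosome 2, had 33.0, 30.7 and 33.4 CPM under the shHDAC5 label and 0.193, 0.140 and 0.0604 CPM under the shControl label. That is 251-fold by summed counts (95% exact counting interval 115 to 684), from 1693 against 6 counts (adjusted p = 2.18e-62, edgeR). Per kilobase, COL6A2 came to 0.477 ± 0.00915 under shHDAC5 labels and 0.00832 ± 0.00276 under shControl labels (SD, n = 3 each) times COL6A1. For COL6A3 over COL6A1 the ratios were 0.0353 ± 0.00146 under shHDAC5 labels and 2.11e-04 ± 1.11e-04 under shControl labels (SD, n = 3 each). All 3 chains were thus detected in every library labelled shHDAC5, while under the shControl label COL6A1 stood almost alone.

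The membrane-spanning COL13A1, found at cell-matrix junctions, had 10.99, 10.4 and 9.95 CPM under the shHDAC5 label and 0, 0.279 and 0.0604 CPM under the shControl label, or 96.8-fold by summed counts (95% exact counting interval 41.2 to 299; adjusted p = 1.78e-38, edgeR). Its log2 fold change was 6.50, and 8.06 without shControl replicate 2, which holds 4 of the 5 control counts. COL18A1, a heparan sulfate-bearing basement membrane collagen whose tail is cut to release endostatin, rose to 238 ± 9.93 CPM under shHDAC5 labels, against 84.5 ± 4.98 CPM under shControl labels (log2 fold change 1.49, standard error 0.0357, adjusted p = 1.85e-65 by edgeR's quasi-likelihood test). It lies on chromosome 21 at lower coordinates than COL6A1 and COL6A2, which also rose. ADAMTS1, the other member on that chromosome, fell (log2 fold change -0.96). COL8A1 and COL16A1, a short-chain collagen and a fibre-associated one, rose from low levels (log2 fold changes 1.43 and 0.85, adjusted p = 5.44e-07 and 5.07e-08, edgeR).

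COL7A1, the anchoring fibril that ties basement membrane to the tissue beneath, was the most abundant of these collagens under the shControl label, per length as well. It fell to 1031, 995 and 992 CPM in the libraries labelled shHDAC5, against 2029.8, 2001 and 2065 CPM in those labelled shControl (log2 fold change -1.01, standard error 0.0223, adjusted p = 4.02e-69 by edgeR's quasi-likelihood test). Per kilobase it stood at 90.4 CPM under the shHDAC5 label and 183 CPM under the shControl label, while COL5A1 stood at 94.3 CPM under the shHDAC5 label and 127 CPM under the shControl label. COL12A1, a fibre-associated collagen, stood at 104 ± 0.543 CPM under shHDAC5 labels and 99.2 ± 7.24 CPM under shControl labels (adjusted p = 0.149, edgeR). It passed as higher with upper-quartile factors (adjusted p = 1.46e-06) and library totals (adjusted p = 9.55e-09). COL17A1, a hemidesmosome collagen of basal epithelium, had 64 counts over the libraries labelled shHDAC5 and 64 over those labelled shControl (adjusted p = 0.612, edgeR).

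Matrix glycoproteins split evenly, with 3 rising, 3 falling and 3 too low to test, beside 44.8% and 39.9% of all genes. THBS1, thrombospondin 1, which binds cells and activates latent TGF-beta (ENSG00000137801, chromosome 15, 39581079 to 39599466), had 136, 143 and 142 CPM under the shHDAC5 label and 21.5, 19.0 and 20.2 CPM under the shControl label (log2 fold change 2.79, standard error 0.0504, adjusted p = 2.23e-77 by edgeR's quasi-likelihood test). TNC, tenascin C, a matrix protein of wound edges and tumours, had 68, 58 and 83 counts under shHDAC5 labels and 2, 0 and 0 under shControl labels. Its rise was 92.8-fold by summed counts (95% exact counting interval 25.4 to 771; adjusted p = 2.79e-23, edgeR), and its log2 fold change of 6.30 became 9.05 without shControl replicate 1, which holds both control counts. FN1, fibronectin, was abundant in both groups and rose slightly, with 316 ± 7.998 CPM under shHDAC5 labels and 239 ± 8.11 CPM under shControl labels (SD, n = 3 each; log2 fold change 0.40, adjusted p = 7.87e-25, edgeR).

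The fibrillins fell. FBN1 (ENSG00000166147, chromosome 15, 48408313 to 48645709), the main protein of the microfibrils that scaffold elastin and store TGF-beta, had 34.3, 32.6 and 31.3 CPM in libraries labelled shHDAC5, against 295, 277 and 288 CPM in those labelled shControl (log2 fold change -3.13, standard error 0.0396, adjusted p = 1.65e-92 by edgeR's quasi-likelihood test). FBN2, its developmental relative, fell to 184 ± 0.513 CPM under the shHDAC5 label, against 528 ± 2.11 CPM under the shControl label (SD, n = 3 each; log2 fold change -1.52, adjusted p = 1.88e-77, edgeR). VIT, vitrin, a matrix protein with von Willebrand A domains, was nearly lost, with 3, 7 and 1 counts under the shHDAC5 label and 454, 370 and 415 under the shControl label. It fell by 6.94 on the log2 scale (standard error 0.202, adjusted p = 2.07e-57, edgeR), and its log2 fold change was -7.77 without shHDAC5 replicate 2. Libraries labelled shHDAC5 were lower 127-fold by summed counts (95% exact counting interval 70.6 to 255). SPARC, THBS2 and POSTN, secreted proteins typical of activated fibroblasts, were not tested: they had 13, 22 and 1 counts over the 3 libraries labelled shHDAC5, and 1, 0 and 0 over those labelled shControl. For SPARC that is 11.5-fold by summed counts (95% exact counting interval 1.73 to 491), and THBS2 was at least 6.51-fold higher against 3 counts over the control group.

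Laminins and basement membrane proteins changed chain by chain. Of 8 tested, 3 rose and 5 fell, against 44.8% and 39.9% of all genes, and NID1 was not tested. LAMA5 and LAMB1, alpha and beta chains of the common epithelial laminin, fell, while LAMC1, the gamma chain that most laminins share, rose. LAMA5 had 483, 472 and 459 CPM under the shHDAC5 label and 1380.3, 1298 and 1351 CPM under the shControl label (log2 fold change -1.51, standard error 0.0244, adjusted p = 5.06e-82 by edgeR's quasi-likelihood test). LAMB1 had 99.2, 95.6 and 102 CPM in the libraries labelled shHDAC5 and 317, 310.1 and 318 CPM in those labelled shControl (log2 fold change -1.67, standard error 0.0320, adjusted p = 7.77e-75 by edgeR's quasi-likelihood test). LAMC1 stood at 277 ± 8.13 CPM under shHDAC5 labels and 234 ± 3.51 CPM under shControl labels (SD, n = 3 each; log2 fold change 0.24, adjusted p = 6.61e-13, edgeR). Per kilobase, LAMA5 came to 1.01 ± 0.0343 under shHDAC5 labels and 3.39 ± 0.103 under shControl labels (SD, n = 3 each) times LAMC1. For LAMB1 over LAMC1 the ratios were 0.163 ± 0.00991 under shHDAC5 labels and 0.612 ± 0.00686 under shControl labels (SD, n = 3 each). LAMB2, the other common beta chain and not a member, fell less, with 127 ± 3.87 CPM under shHDAC5 labels and 183 ± 8.10 CPM under shControl labels (SD, n = 3 each; log2 fold change -0.53, adjusted p = 1.84e-28, edgeR).

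LAMA3 and LAMB3, chains of the anchoring laminin of skin-like epithelia, and LAMA1 differed in size and direction. LAMA3 fell to 15.6 ± 0.281 CPM under shHDAC5 labels, against 28.2 ± 1.39 CPM under shControl labels (log2 fold change -0.85, adjusted p = 2.62e-18, edgeR). LAMB3 was nearly level, with 215 ± 3.16 CPM under shHDAC5 labels and 227 ± 5.19 CPM under shControl labels. Its call as lower (log2 fold change -0.08, adjusted p = 0.0121, edgeR) turned to higher with upper-quartile factors (0.06, adjusted p = 0.0386) and library totals (0.10, adjusted p = 0.000476). LAMA1, an embryonic alpha chain, rose to 126 ± 2.47 CPM under the shHDAC5 label, against 99.1 ± 1.41 CPM under the shControl label (log2 fold change 0.35, adjusted p = 1.76e-15, edgeR).

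The heparan sulfate proteoglycans moved apart. HSPG2, perlecan, fell to 521 ± 5.16 CPM in libraries labelled shHDAC5, against 869 ± 39.8 CPM in those labelled shControl (SD, n = 3 each; log2 fold change -0.74, adjusted p = 3.05e-51, edgeR). AGRN, agrin, known for clustering receptors at the nerve-muscle junction, rose to 1148 ± 11.9 CPM under the shHDAC5 label, against 905 ± 31.2 CPM under the shControl label (log2 fold change 0.34, adjusted p = 9.58e-27, edgeR). NID1, the nidogen that links laminin to collagen IV, had 19, 11 and 8 counts under shHDAC5 labels and 0, 1 and 0 under shControl labels, 33.7-fold by summed counts (95% exact counting interval 5.70 to 1368). PXDN, a peroxidase that crosslinks collagen IV, had the smallest adjusted p among the basement membrane genes outside the set, with 120.2 ± 2.38 CPM under shHDAC5 labels and 702 ± 26.3 CPM under shControl labels (SD, n = 3 each; log2 fold change -2.55, adjusted p = 2.37e-96, edgeR).

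**Figure D3:**
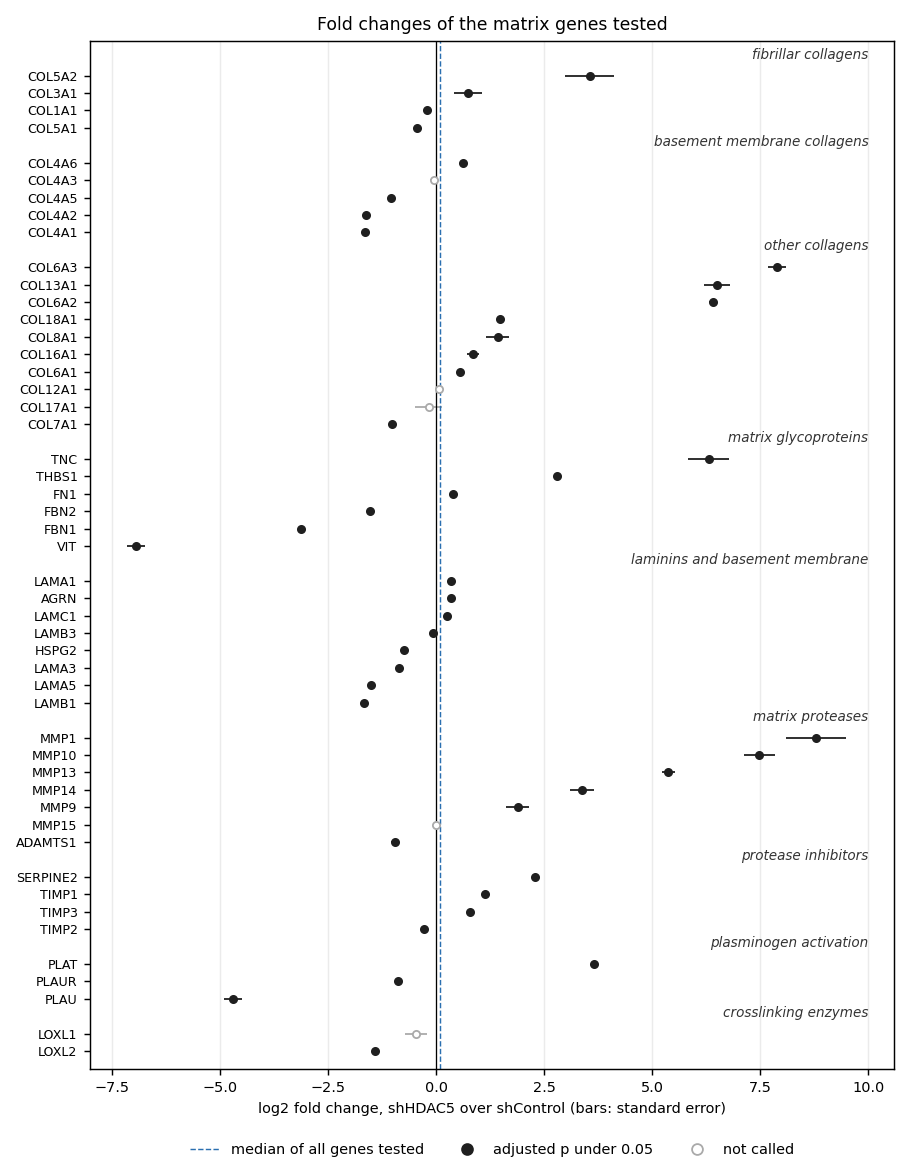
Log2 fold change (shHDAC5 over shControl) with standard error for the 49 genes tested, by role, with open circles for genes not called and a dashed line at the median of all genes tested, 0.09. The metalloproteinases and the other collagens reach furthest to the right, and VIT, PLAU and FBN1 furthest to the left. The value drawn for MMP1, with 0 counts in the libraries labelled shControl, depends on the small count added in the fit.

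Of the 10 matrix proteases, 5 rose, ADAMTS1 fell, MMP15 was not called and 3 were not tested, where 44.8% of all genes rose and 39.9% fell. The 5 that rose were all scarce under the shControl label. MMP1, the classic interstitial collagenase (ENSG00000196611, chromosome 11, 102789919 to 102798160), had 47, 72 and 56 counts under the shHDAC5 label and 0, 0 and 0 under the shControl label. It was at least 51.8-fold higher against 3 counts over the control group (adjusted p = 5.10e-22, edgeR). MMP10, stromelysin 2, had 9.22, 9.10 and 8.78 CPM in the libraries labelled shHDAC5 and 0.0644, 0 and 0.0604 CPM in those labelled shControl, or 209.6-fold by summed counts (95% exact counting interval 57.7 to 1736) from 472 against 2 counts (adjusted p = 1.31e-37, edgeR). MMP13, a collagenase of cartilage and invasive tumours, was the most abundant of them, with 30.1, 27.5 and 29.0 CPM under the shHDAC5 label and 0.515, 0.699 and 0.845 CPM under the shControl label (log2 fold change 5.37, standard error 0.157, adjusted p = 2.38e-57 by edgeR's quasi-likelihood test).

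MMP1, MMP10 and MMP13 lie in a cluster of metalloproteinase genes on chromosome 11, and not all of its genes rose. MMP12, the macrophage elastase of the same cluster and not a member, had 17, 24 and 15 counts under the shHDAC5 label and 0, 0 and 0 under the shControl label, at least 16.6-fold higher against 3 counts over the control group (adjusted p = 3.36e-11, edgeR). MMP3, stromelysin 1, sits between MMP1 and MMP12 and had 0, 2 and 0 counts under shHDAC5 labels and 1, 2 and 0 under shControl labels. MMP7, matrilysin, at 1 end of the cluster, had 9, 3 and 8 counts under the shHDAC5 label and 1, 5 and 3 under the shControl label. MMP8 and MMP20, not members, had 28 and 19 counts over the libraries labelled shHDAC5 and 0 over those labelled shControl, and MMP27 had none in any. So genes with 175 and 2 counts under the shHDAC5 label, MMP1 and MMP3, stand 37640 bases apart.

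**Figure D4:**
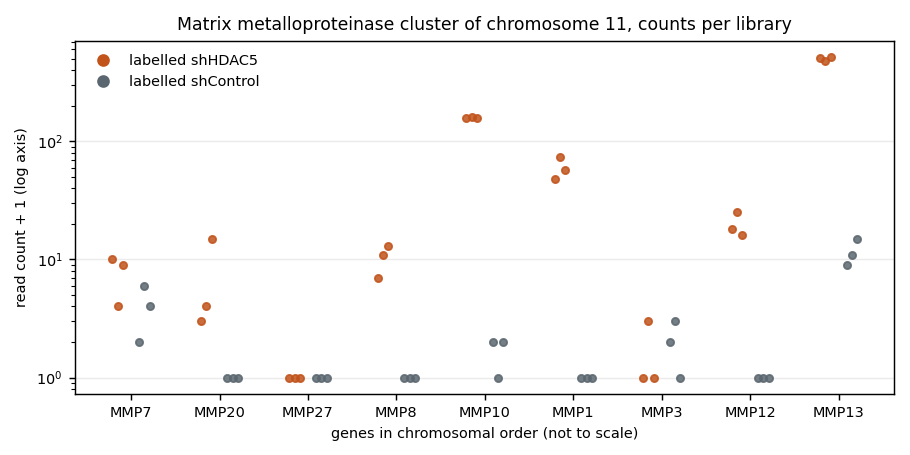
Read count plus 1 (log axis) of the 9 genes of the metalloproteinase cluster of chromosome 11 in each library, in chromosomal order, shHDAC5 left of shControl. MMP10, MMP1, MMP12 and MMP13 are raised under the shHDAC5 label, while MMP3 and MMP27 stay at or near 0 and MMP7 overlaps between the groups.

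The membrane-anchored MMP14, which activates pro-MMP2, had 5.32, 5.27 and 4.42 CPM under the shHDAC5 label and 0.451, 0.489 and 0.483 CPM under the shControl label (log2 fold change 3.38, standard error 0.279, adjusted p = 3.80e-21 by edgeR's quasi-likelihood test). Its substrate MMP2, the gelatinase of fibroblasts, was not tested, with 18 counts over the libraries labelled shHDAC5 and 1 over those labelled shControl, 16.0-fold by summed counts (95% exact counting interval 2.52 to 666). MMP9, the other gelatinase, had 58, 52 and 53 counts in libraries labelled shHDAC5 and 12, 12 and 15 in those labelled shControl (log2 fold change 1.88, adjusted p = 9.52e-10, edgeR). The span of MMP9 overlaps the antisense gene SLC12A5-AS1, which had 258 counts under shHDAC5 labels and 112 under shControl labels. Since the strand setting of the counting is not given, reads of the overlapping genes cannot be told apart. MMP15, a membrane-type enzyme, was the most abundant metalloproteinase of the set per kilobase and stood at 67.6 ± 2.33 CPM under shHDAC5 labels and 67.3 ± 1.99 CPM under shControl labels (adjusted p = 0.884, edgeR), passing as higher only with upper-quartile factors (adjusted p = 0.00177) and library totals (adjusted p = 6.23e-05). ADAMTS1, which cuts large proteoglycans, fell to 15.7 ± 1.57 CPM under the shHDAC5 label, against 30.4 ± 1.29 CPM under the shControl label (log2 fold change -0.96, adjusted p = 3.71e-21, edgeR).

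Of the 4 protease inhibitors, 3 rose and TIMP2 fell, against 44.8% and 39.9% of all genes. TIMP1, a secreted metalloproteinase inhibitor, had 218, 215 and 214 CPM in libraries labelled shHDAC5 and 97.6, 102 and 96.9 CPM in those labelled shControl (log2 fold change 1.13, standard error 0.0337, adjusted p = 1.90e-56 by edgeR's quasi-likelihood test). TIMP3, which binds to the matrix itself, rose to 251 ± 7.67 CPM under the shHDAC5 label, against 145 ± 5.01 CPM under the shControl label (log2 fold change 0.80, adjusted p = 4.73e-45, edgeR). TIMP2, needed for MMP14 to activate MMP2, fell slightly, with 286 ± 4.58 CPM under shHDAC5 labels and 346 ± 6.55 CPM under shControl labels (log2 fold change -0.28, adjusted p = 1.29e-16, edgeR). Per kilobase, the ratio of TIMP1 to TIMP2 was 2.94 ± 0.0682 under shHDAC5 labels and 1.11 ± 0.0475 under shControl labels (SD, n = 3 each). SERPINE2, a serpin that inhibits thrombin and plasminogen activators, rose most, with 111, 105 and 108 CPM under the shHDAC5 label and 21.2, 20.96 and 24.0 CPM under the shControl label (log2 fold change 2.29, standard error 0.0529, adjusted p = 7.03e-67 by edgeR's quasi-likelihood test). In sum over the list, inhibitors came to 845 to 870.5 CPM in the libraries labelled shHDAC5 and 603 to 624 CPM in those labelled shControl.

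The plasminogen activators changed places. PLAT, the tissue-type activator known from clot dissolution, had 128, 129 and 124 CPM under the shHDAC5 label and 9.98, 10.1 and 10.3 CPM under the shControl label (log2 fold change 3.65, standard error 0.0589, adjusted p = 4.72e-82 by edgeR's quasi-likelihood test). PLAU, urokinase (ENSG00000122861, chromosome 10, 73908832 to 73917494), had 0.591, 0.458 and 0.447 CPM in the libraries labelled shHDAC5 and 13.5, 12.6 and 13.0 CPM in those labelled shControl (log2 fold change -4.69, standard error 0.207, adjusted p = 3.47e-41 by edgeR's quasi-likelihood test). The ratio of PLAT to PLAU per kilobase was 98.0 ± 13.9 under shHDAC5 labels and 0.295 ± 0.0114 under shControl labels (SD, n = 3 each), so PLAU exceeded PLAT in every library labelled shControl and PLAT exceeded PLAU in every library labelled shHDAC5. PLAUR, the urokinase receptor, fell with its ligand to 30.9 ± 1.78 CPM under the shHDAC5 label, against 56.8 ± 2.40 CPM under the shControl label (log2 fold change -0.88, adjusted p = 5.29e-28, edgeR). C10orf55, a noncoding gene overlapping PLAU, had 3 counts under the shHDAC5 label and 27 under the shControl label, beside 26 for PLAU under the shHDAC5 label and 606 under the shControl label.

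The crosslinking enzymes were lower or not called. LOXL2, a lysyl oxidase-like enzyme that crosslinks collagen IV, had 226, 219 and 225 CPM in the libraries labelled shHDAC5, against 593, 585 and 611 CPM in those labelled shControl (log2 fold change -1.42, standard error 0.0270, adjusted p = 3.93e-75 by edgeR's quasi-likelihood test). LOXL1, which acts on elastic fibres, stood at 1.70 ± 0.247 CPM under shHDAC5 labels and 2.35 ± 0.195 CPM under shControl labels and did not pass (adjusted p = 0.0787, edgeR), though its groups did not overlap. LOX itself, outside the set, fell to 20.1 ± 1.64 CPM under the shHDAC5 label, against 103 ± 2.82 CPM under the shControl label (log2 fold change -2.35, adjusted p = 4.87e-67, edgeR).

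Other genes of the matrix, 168 in 7 lists by function, also moved in either direction. Of these, 124 were tested, 60 rose and 55 fell, against 44.8% and 39.9% of all genes. Their median log2 fold change was 0.10. Among collagen chains outside the set, 9 rose and 3 fell of 13 tested (median 2.18). COL15A1, a basement membrane relative of COL18A1, went the other way from it, with 18.0 ± 0.762 CPM under shHDAC5 labels and 211 ± 1.91 CPM under shControl labels (SD, n = 3 each; log2 fold change -3.55, adjusted p = 2.81e-91, edgeR). Among the other basement membrane genes, 2 rose and 5 fell of 8 tested (median -0.44). For the glycoproteins and proteoglycans, 14 rose and 11 fell of 28 tested. SMOC1, a calcium-binding matrix protein related to SPARC, had the smallest adjusted p, with 75.5 ± 2.06 CPM under shHDAC5 labels and 978 ± 16.9 CPM under shControl labels (log2 fold change -3.70, adjusted p = 2.67e-111, edgeR). EFEMP2, which guides elastic fibre assembly, rose to 86.8 ± 1.35 CPM under shHDAC5 labels, against 14.5 ± 0.946 CPM under shControl labels (log2 fold change 2.58, adjusted p = 2.14e-66, edgeR).

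Among the other matrix proteases 18 rose and 9 fell of 29 tested (median 0.50), against 44.8% and 39.9% of all genes. HPSE, heparanase, which cuts heparan sulfate, rose to 65.0 ± 1.34 CPM in libraries labelled shHDAC5, against 14.8 ± 1.18 CPM in those labelled shControl (log2 fold change 2.13, adjusted p = 1.61e-55, edgeR). ADAM9, a membrane protease, fell to 107 ± 1.03 CPM under the shHDAC5 label, against 278 ± 7.14 CPM under the shControl label (log2 fold change -1.38, adjusted p = 1.03e-66, edgeR). Among other inhibitors, 2 rose and 4 fell of 6 tested, and A2M, the broad protease trap alpha-2-macroglobulin, rose to 74.2 ± 2.25 CPM under the shHDAC5 label, against 3.08 ± 0.417 CPM under the shControl label (log2 fold change 4.60, adjusted p = 9.81e-75, edgeR). For matrix receptors, 5 rose and 7 fell of 14 tested. SDC4, a syndecan of focal adhesions, rose to 618 ± 9.88 CPM under shHDAC5 labels, against 177 ± 5.49 CPM under shControl labels (log2 fold change 1.80, adjusted p = 9.17e-84, edgeR), and ITGB4, the hemidesmosome integrin, fell to 37.4 ± 1.64 CPM under shHDAC5 labels, against 186 ± 9.38 CPM under shControl labels (log2 fold change -2.32, adjusted p = 9.12e-77, edgeR).

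Among genes that fold, process and crosslink collagen, 10 rose and 16 fell of 26 tested, against 44.8% and 39.9% of all genes. Their median log2 fold change was -0.85, beside 0.09 for all genes. The 10 that rose included the prolyl hydroxylase subunits P4HA1, P4HA2 and P4HB, the hydroxylases P3H1 and PLOD1, and PPIB, a prolyl isomerase, with log2 fold changes between 0.12 (PLOD1) and 0.79 (P3H1). ADAMTS2, TLL2 and ADAMTS14 rose more, with log2 fold changes of 8.91, 3.75 and 3.51 (adjusted p = 4.96e-46, 4.91e-24 and 1.61e-38, edgeR). ADAMTS2 had 247, 254 and 232 counts under the shHDAC5 label and 0, 0 and 1 under the shControl label. SERPINH1, the collagen-specific chaperone of the endoplasmic reticulum, had 17.9, 17.7 and 19.96 CPM in the libraries labelled shHDAC5, against 134, 147 and 137 CPM in those labelled shControl (log2 fold change -2.91, standard error 0.0517, adjusted p = 5.66e-78 by edgeR's quasi-likelihood test). CRTAP, part of the prolyl hydroxylation complex, fell to 85.7 ± 1.78 CPM under the shHDAC5 label, against 388 ± 8.31 CPM under the shControl label (log2 fold change -2.18, adjusted p = 3.15e-86, edgeR). TGM2, a transglutaminase that crosslinks fibronectin, rose to 174 ± 4.55 CPM under the shHDAC5 label, against 42.2 ± 1.33 CPM under the shControl label (log2 fold change 2.04, adjusted p = 1.79e-72, edgeR).

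**Figure D5:**
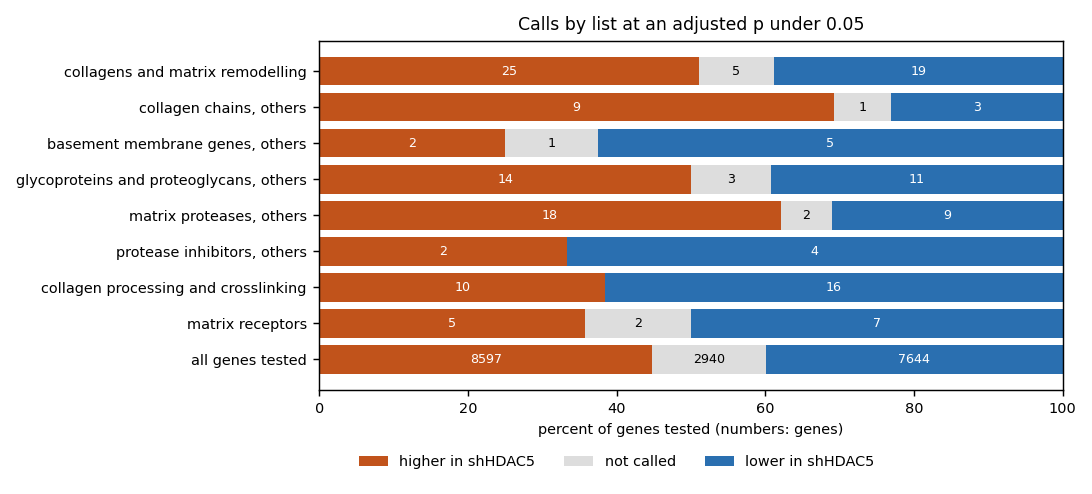
Share of tested genes called higher, not called and called lower (shHDAC5 over shControl, adjusted p under 0.05) in the 57-gene set, in 7 lists of other matrix genes and in all genes tested, with the number of genes printed in each bar. Other collagen chains reach 9 higher against 3 lower, collagen processing genes 10 against 16.

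Markers of other cell types were looked at beside these changes. Of 11 fibroblast markers, PDGFRA, FAP, LUM, DPT and PDPN had 5 counts or fewer over the 3 libraries of either group, and LUM had none. The 11 summed to 26.6 to 29.7 CPM in the libraries labelled shHDAC5 and 38.1 to 40.5 CPM in those labelled shControl, a difference carried by PDGFRB. Without it the other 10 summed to 19.7 to 23.2 CPM in the libraries labelled shHDAC5 and 8.45 to 10.5 CPM in those labelled shControl. That reversed difference was in turn carried by LRRC15 and TAGLN. LRRC15 averaged 9.53 CPM under shHDAC5 labels and 0.0215 CPM under shControl labels, and TAGLN 9.47 and 4.72 CPM. DCN (0.632 and 2.35 CPM) and ACTA2 (1.82 and 2.53 CPM) had lower means under the shHDAC5 label, so the sums show no common direction of the markers. PDGFRB fell (log2 fold change -2.16, adjusted p = 2.88e-41, edgeR), as did DCN (log2 fold change -1.89, adjusted p = 5.99e-08, edgeR). LRRC15, a marker of activated fibroblasts, rose, with 161, 181 and 156 counts under the shHDAC5 label and 1, 0 and 0 under the shControl label, 442-fold by summed counts (95% exact counting interval 79.0 to 17503; adjusted p = 1.38e-38, edgeR). TAGLN rose too (log2 fold change 1.00, adjusted p = 3.05e-10, edgeR), ACTA2 was not called and THY1 was not tested. The 6 endothelial markers summed to 4.14 to 4.47 CPM in the libraries labelled shHDAC5 and 1.33 to 1.74 CPM in those labelled shControl, and the 6 leukocyte markers to 5.26 to 6.74 CPM in the libraries labelled shHDAC5 and 3.32 to 4.19 CPM in those labelled shControl. PTPRC, CD3E and LYZ had 5 counts or fewer over either group. What part these markers' cell types had in the matrix changes was not tested.

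GATA1 peaks in PANC-1 were located against the same genes. The peak names inside the lists go against the labels: the list labelled shHDAC5 carries names beginning GATA1-NC-IP, and the list labelled shControl names beginning GATA1-SAHA-IP. With 1 list per condition no difference between them could be tested. A summit lay within 1 kb of either end of 14 of the 57 genes in the list labelled shHDAC5 and of 21 in the list labelled shControl. Among 20037 protein-coding genes the share was 33.9% in the list labelled shHDAC5, where the members' share was 24.6%. In the list labelled shControl it was 52.1%, where the members' share was 36.8%. The direction depended on the window. With the gene body included, members had 93.0% against 77.2% of coding genes in the list labelled shHDAC5. In the list labelled shControl they then had 80.7% against 74%. Members and all coding genes were not matched for gene length. In both lists were 7 genes, ADAMTS1, COL12A1, COL18A1, COL5A2, LAMA5, LAMB1 and NID1, and 29 of the 57 had a peak in neither. By the authors' fold enrichment over background, the peaks at members ran from 1.71 to 3.12 in the list labelled shHDAC5 and from 2.07 to 4.92 in the list labelled shControl.

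Peaks with a −log10 q of at least 1.3 were at 0 members in the list labelled shHDAC5 and at 3 in the list labelled shControl, where the share of coding genes with one was 0.255% in the list labelled shHDAC5 and 6.5% in the list labelled shControl. The 3 were FBN2, LOXL1 and LAMA1. At FBN2 a pair of summits lay on either side of the 5′ end, the first peak at chr5:128537101-128538366 (hg38) with a fold of 4.92 and a −log10 q of 2.50. LOXL1 had a 5′ peak at chr15:73926351-73927264 with a fold of 4.64, and LAMA1 a peak at chr18:7117091-7118232 with a fold of 4.36. FBN1 also had peaks on either side of its start in that list, with a −log10 q of 0.733 for the first, as did THBS1, whose nearest summit was 82 bases from the 5′ end and whose −log10 q was 0.905. In the list labelled shHDAC5 the highest fold was 3.12 at the 3′ end of LAMA5, and a peak summit lay 16 bases from the 5′ end of SPARC, a gene near silence in the RNA of the other cell line. No peak within 1 kb of an end was listed for MMP1, MMP10, MMP13, PLAT or VIT in either list, as for 29 of the 57 members in all. Within 5 kb, the list labelled shHDAC5 had a summit for MMP10, MMP13, PLAT and VIT, where 77.3% of coding genes had one.

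Positions of the genes could let reads be shared. Of the 57 genes, 40 overlap the span of another annotated gene, 7 of them a protein-coding one, and the strand setting is not given. For most members with a counted partner, the partner's counts were small beside the member's. SYN1, for instance, had 62 counts under the shHDAC5 label and 2 under the shControl label. TIMP1, which lies inside it, had 11267 under the shHDAC5 label and 4576 under the shControl label. Other partners had no counts matched by symbol, among them those of COL6A2, COL13A1, TNC, FBN1 and VIT, so their level is unknown. The partner had at least as many counts as the member in some group for MMP1, MMP3, MMP9, LOXL1, THBS2 and SPARC. LOXL1-AS1 had 68 counts under the shHDAC5 label and 130 under the shControl label, and THBS2-AS1 had 25 under the shHDAC5 label and 15 under the shControl label. WTAPP1, a pseudogene overlapping MMP1 and MMP3, had 28 counts under the shHDAC5 label and 17 under the shControl label, and CLMAT3, overlapping SPARC, had 10 under the shHDAC5 label and 1 under the shControl label. Among abundant members, FN1 overlaps ATIC, with 2261 counts under the shHDAC5 label and 5617 under the shControl label beside 16518 under the shHDAC5 label and 11132 under the shControl label for FN1. COL18A1 overlaps SLC19A1, with 1673 counts under the shHDAC5 label and 1534 under the shControl label.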

How the data were processed

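RNA of 6 libraries labelled BxPC-3 (3 shHDAC5, 3 shControl) was analysed from gene counts, and GATA1 binding in PANC-1 from 1 peak list for each of shHDAC5 and shControl. The authors deposited whole-number read counts per Ensembl gene, not normalized, with a length per gene. MACS2 2.2.7.1, featureCounts 2.0.1, FastQC 0.11.9, deepTools 3.5.0, fastp 0.23.2 and hg38 appear in the submitters' processing notes, which state no roles. The aligner, annotation release, strand setting and any pooling before peak calling are details not given in the sources used here. Deposited peak lists give each peak's fold enrichment as a ratio and its −log10 q, the authors' own values per peak.

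Symbols were matched for 61369 of 61541 gene IDs. Libraries held 15179758 to 17854340 counts. The filter on low counts (filterByExpr of edgeR 4.0.16, R 4.3.3) left 19181 genes. TMM factors and a quasi-likelihood test on group alone followed, with Benjamini-Hochberg adjustment over all genes tested and a threshold of 0.05. CPM use TMM-scaled library sizes, and levels per kilobase divide by the deposited length. Standard errors were obtained by dividing each log2 fold change by the root of F. Folds against a group at 0 use 3 counts over the group; intervals are 95% exact binomial ones and cover counting error only. Ratios of chains were compared with two-sided exact permutation tests. The code was tested on simulated data with known changes. Libraries of a group differed by more than counting noise (chi-square over degrees of freedom 1.57 to 2.07), so each counted once.

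By summit, peaks on the 22 autosomes, X and Y were assigned to RefSeq gene ends (GRCh38.p14); promoter sequences are RefSeq's. Alternatives were DESeq2 1.42.0, other scalings, other filters, a stricter threshold, omitting each library, a block for replicate number, and other peak thresholds and windows. The members and lists were chosen with earlier results of these data known. Named are the members, partner genes chosen with them, the gene with the smallest adjusted p per direction and list of other matrix genes (average log2 CPM of at least 1), and, added after their values were seen, DCN, PDGFRB, TAGLN, LRRC15, MMP8, MMP12, MMP20, MMP27, the other cell type markers, the collagen-processing genes that rose and the overlapping genes. Some genes of this rule are not reported here.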

Additional observations from a re-analysis of the deposited data

How the results depend on the processing

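The counts of members called, 25 higher and 19 lower, stayed within 1.5 times under DESeq2, other scalings, other filters and the omission of any 1 library. Leaving out each library in turn gave 24 to 26 higher and 19 lower members. With the replicate number as a block the counts were 25 and 19, and for other matrix genes 60 and 53. Same-numbered libraries did not deviate together across genes (correlations -0.013, 0.0026 and 0.0059). Whether they share more than a number is not in the labels. At an adjusted p under 0.01 and at least 2-fold, 16 members were higher and 11 lower, and 39 and 34 other matrix genes, against 60 and 55; the stricter threshold itself removes them. For HDAC5 the log2 fold change was 0.75 to 0.97 throughout. Scaling moved the median log2 fold change of all genes to 0.23 with upper-quartile factors and 0.27 with library totals, against 0.09 (0.35 with DESeq2, over more genes), and changes smaller than that shift depend on it. Signs turned under these scalings for LAMB3 (0.062 and 0.105) and COL4A3 (0.097 and 0.140), and with library totals for COL17A1 (0.013). Leaving out 1 library gave values of COL17A1 between -0.313 and 0.054, of COL12A1 between -0.015 and 0.074 and of MMP15 between -0.036 and 0.022, none of them called; MMP15 was -0.034 without the filter. For these the cause was not tested. Of 588 values of single members under alternatives, 565 kept direction and side of the threshold. Without the filter on low counts, the members left untested otherwise included 4 that passed as higher, MMP2, NID1, SPARC and THBS2.

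Members with a GATA1 peak near an end numbered 14 in the list labelled shHDAC5 and 21 in the list labelled shControl. Keeping peaks of −log10 q 1.3 or more left 0 and 3, against 0.255% and 6.5% of coding genes. Within 5 kb they were 43 and 38 (75.4% and 66.7%, against 77.3% and 70.6%). With the gene body included they were 53 and 46 (93.0% and 80.7%, against 77.2% and 74%), above the background where the narrow window put them below. That background was not matched for gene length. Within 1 kb of a start site, a window added after seeing the data, they were 8 and 14 of 40 genes (20% and 35%, against 22.5% and 46.6%). Fewer peaks or wider windows set these counts by construction. Depth limits the 8 untested members, with at most 38 counts a group.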
